A study of Mus musculus with 186 samples.

Results

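Inner cells of mouse embryos cultured for 24 hours in DMSO were compared with inner cells cultured for 16 hours in DMSO. The cells were chosen by their labels, as every analysed cell whose treatment reads DMSO. They number 59 of the 169 cells of the series, 31 at 16 hours and 28 at 24 hours. They fall into 6 of its 18 experiments, an experiment being the cells of 1 group that carry 1 collection date. The 3 experiments at 16 hours held 3, 18 and 10 cells, and the 3 at 24 hours held 6, 11 and 11.

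All embryos were of the CD-1 strain, from natural matings, and no mutation or transgene is named in their labels. Morulae taken at E2.75 (days after fertilisation) were cultured in KSOM, an embryo medium, with DMSO, the solvent used as vehicle. The zona was then removed, inner cells were isolated by immunosurgery, which lyses the outer layer, and RNA of single cells was sequenced after reverse transcription from the 3′ end. The groups set beside them were fresh, uncultured inner cells at E3.25 (19 cells), E3.75 (22 cells) and E4.0 (14 cells), with 2 experiments each, and morulae cultured for the same times with 10 µM LY294002 (LY), a PI3K inhibitor, which gave 31 cells at 16 hours and 24 at 24 hours in 3 experiments each. Each experiment pooled litters, per the series' design text, and the embryo of a cell is not named. Every 24 hour date is earlier than every 16 hour date, so culture time and collection date cannot be told apart.

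At this age the inner cell mass holds progenitors that carry both NANOG and GATA6. They settle as epiblast, which keeps NANOG and SOX2 and secretes FGF4, or as primitive endoderm, which keeps GATA6 and then switches on SOX17, GATA4 and SOX7 before it lays down basement membrane. FGF signalling through ERK pushes cells towards primitive endoderm, and LIF acting through STAT3 supports naive pluripotency genes such as Klf4.

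Values are means over the cells of an experiment of log2(TPM + 1), where TPM is a transcript's abundance scaled to a fixed total per cell. In such a mean, fewer expressing cells and less RNA in each of them cannot be told apart. Differences are 24 hours minus 16 hours with their standard error (SE) and, where given, the 95% confidence interval. A gene is called at an adjusted p under 0.05 in limma, over 11680 genes, and "rose" and "fell" are kept for called genes. Groups that do not overlap are those where all 3 experiments of one time lie above all 3 of the other.

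Library quality differed between the times. Cells had on average 9995, 7156 and 7102 genes at or above a TPM of 1 in the 16 hour experiments, and 5726, 6668 and 6969 at 24 hours. The first 16 hour experiment stood apart, with 3 cells of 9664 to 10220 genes. The time means were 8084 ± 1655 and 6454 ± 648 genes (SD, n = 3 each), without overlap (exact two-sided permutation p = 0.1, the smallest that 3 against 3 allows). Mitochondrially encoded genes took up 10.8%, 14.3% and 13.3% of TPM at 16 hours and 1.55%, 9.17% and 9.12% at 24 hours (exact p = 0.1). Of 20 such single measures none passed 0.05 after adjustment, the lowest adjusted p being 0.5. The sequencing depth of a cell is unknown, because TPM keeps none.

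**Figure D1:**
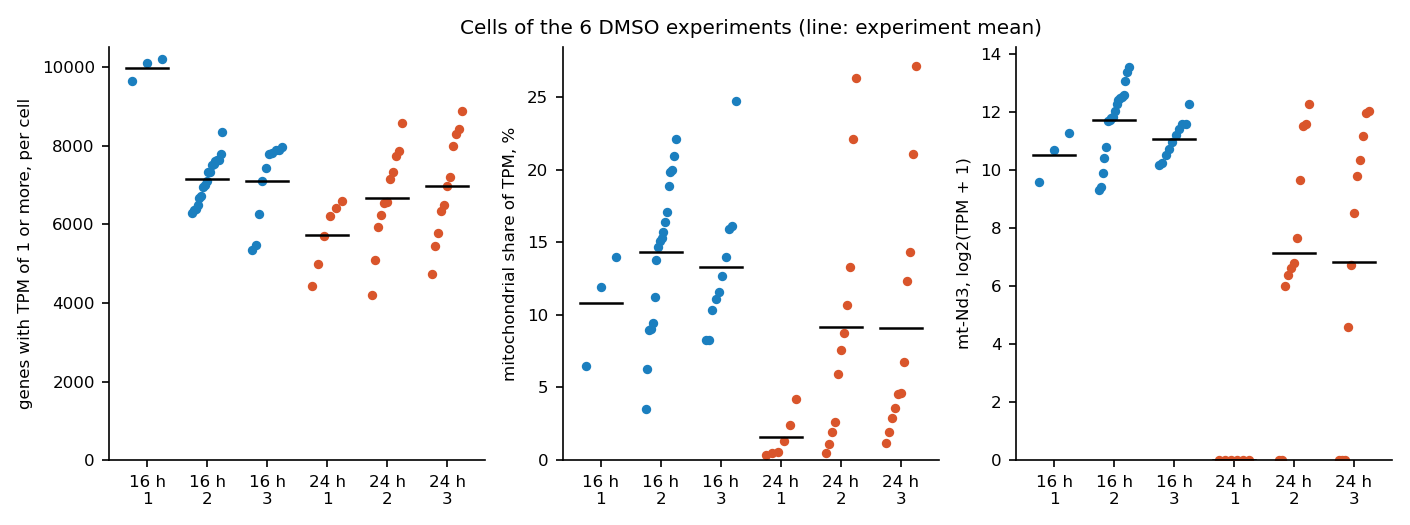
Number of genes detected, mitochondrial share of TPM and mt-Nd3 level (log2(TPM + 1)) for each of the 59 cells, by experiment. The 3 cells of the first 16 hour experiment lie at 9664 genes or above, and the first 24 hour experiment has the lowest mean mitochondrial share, 1.55%.

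The inner cell identity given by the labels was checked against markers. Pou5f1, the pluripotency factor OCT4, had a TPM of 1 or more in all 59 cells. Its level was 8.0, 6.55 and 6.87 at 16 hours, then 8.22, 7.63 and 8.0 at 24 hours. Sox2, which epiblast keeps, had a TPM of 1 or more in 19 of 31 cells at 16 hours and 17 of 28 at 24 hours. In fresh cells the count was 19 of 19 at E3.25, 17 of 22 at E3.75 and 14 of 14 at E4.0. Of 12 markers of blood, vessel, placenta and fibroblast cells, 8, 7 and 8 were listed at 0 in all cells of the 16 hour experiments and 9, 8 and 9 at 24 hours. Their summed TPM averaged 19.1, 15.8 and 3.31 per cell at 16 hours, then 5.87, 11 and 9.73 at 24 hours, and reached 104 in 1 cell at 16 hours. Ptprc (blood), Kdr (vessel), Prl3d1 and Tpbpa (placenta) and Col1a1 (fibroblast) were listed at 0 in every one of these cells. The haemoglobin gene Hba-a1 reached a TPM of 1 in 7 of 31 cells at 16 hours and 4 of 28 at 24 hours. Pecam1, counted here as a vessel marker, was 2.83, 1.1 and 0.86 at 16 hours, then 1.26, 2.03 and 1.77 at 24 hours. Vim, counted as mesenchymal, was 1.76, 0.88 and 0.47, then 0.57, 0.07 and 0.6. Neither value alone names a foreign cell. The part of these markers in the results was not tested. The 12 markers do not cover trophectoderm, the outer layer, so they cannot tell inner from outer cells. Its markers are given further below.

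Only 1 transcript separated the 2 culture times beyond the spread between experiments in this fit. Of 11680 genes, 1 fell and 0 rose, which is 0.00856% of genes lower and 0% higher. At an unadjusted p under 0.05 there were 1268 genes (10.9%), of which 1196 were lower at 24 hours (10.2%) and 72 higher (0.616%). The balance leaned to lower values throughout, with 8145 genes (69.7%) below 0 and a median difference of -0.29 over all genes. That median moved with the experiments, whose own medians over all genes were 2.97, 1.78 and 1.69 at 16 hours, then 1.38, 1.72 and 1.83 at 24 hours. Without the first 16 hour experiment it was -0.02. With the number of genes detected as a covariate it was 0.10, and after quantile normalization it was 0.05. Differences of single genes therefore have to be read against this shift. The precision was modest: the median SE was 0.59 and the median 95% interval reached 1.23 to either side.

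**Figure D2:**
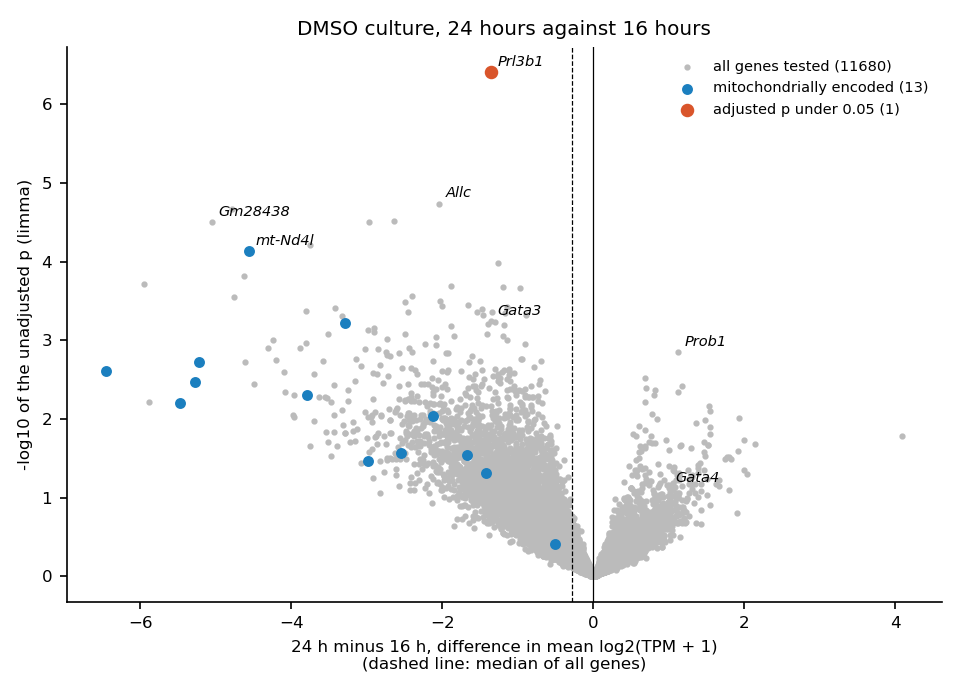
Difference in mean log2(TPM + 1), 24 hours minus 16 hours (x axis), against -log10 of the unadjusted limma p (y axis) for 11680 genes, with the 13 mitochondrially encoded genes in blue and the dashed line at the median of -0.29. Prl3b1 is the called gene, and most points lie left of 0.

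The gene that fell was Prl3b1 (ENSMUSG00000038891.3; mm10 chromosome 13, 27241847 to 27249683, plus strand), which encodes placental lactogen II, a prolactin-family hormone known from trophoblast giant cells. Its level was 1.49, 1.54 and 1.3 in the 16 hour experiments. At 24 hours it was 0.00, 0.02 and 0.26. The 16 hour experiments lay close together and well above those at 24 hours, and the difference was -1.35 ± 0.19 (SE; interval -1.74 to -0.97; adjusted p = 0.00455). The transcript was confined to some cells: a TPM of 1 or more was seen in 1 of 3, 7 of 18 and 3 of 10 cells at 16 hours, 11 of 31 in all (35.5%, exact 95% interval 19.2% to 54.6%), against 1 of 28 at 24 hours. A TPM of 10 or more was seen in 6 of 31 cells and in 0 of 28. The latter allows a share of up to 10.7% by a limit of 3 cells, and 12.3% by the exact 95% interval. In fresh cells it was listed at 0 in both E3.25 and both E4.0 experiments and was 0.26 and 0.00 at E3.75. With LY it was 0.37, 0.40 and 0.21 at 16 hours and listed at 0 at 24 hours. Only the 16 hour DMSO group, where it is high, brought Prl3b1 past the filter of 25% of cells. The next highest share was 12.9%, at 16 hours with LY. The cell shares come from the same values as the call and give no separate support. With no filter its adjusted p in limma was 0.0105. The prolactin family has many close copies, among which reads can be shared. Of 21 alternative analyses 12 kept the call. Those without the first or the second 24 hour experiment did not (limma adjusted p = 0.0753 and 0.0835), nor did those on run 1 or run 2 cells alone (0.707 and 0.0835). A fit of the DMSO experiments alone gave 0.281, and one without a trend 0.23. Quantile normalization gave 0.0964 and genes detected as a covariate 0.0519. Without the first experiment of both times it was 0.128. The SE of 0.19 rests on the spread of all 7 groups, among them those where Prl3b1 was listed at 0.

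The genes next in order of p did not pass. Allc, which encodes allantoicase, an enzyme of purine breakdown, was 2.55, 1.63 and 2.51 at 16 hours, then 0.00, 0.09 and 0.47 at 24 hours. Its difference was -2.04 ± 0.37 (adjusted p = 0.0617). The same adjusted p applied to mt-Tm (-4.78 ± 0.88), the mitochondrial tRNA for methionine, to Gm48222 (-2.64 ± 0.50), a long noncoding RNA, and to Gm28438 (-5.05 ± 0.95), an unprocessed pseudogene whose reads may be shared with a copy. All 4 were without overlap. In the other direction the smallest p belonged to Prob1 (1.12 ± 0.30, adjusted p = 0.267), then Dglucy (0.69), Gm42429 (1.18), Kcnf1 (0.70) and Gm14648 (0.81), with adjusted p from 0.316 to 0.329. The largest positive difference of any gene, picked out after its values were seen, was that of Fam25c at 4.09 ± 1.57 (adjusted p = 0.384). Its experiments overlapped, at 5.67, 2.56 and 0.28 against 3.83, 8.16 and 8.79.

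Progenitor markers lay at like levels at both times. Nanog (chromosome 6, 122707489 to 122714633) was 6.18, 5.73 and 6.42 at 16 hours, then 6.78, 5.61 and 6.42 at 24 hours, and the groups overlapped fully. The difference was 0.16 ± 0.94 (interval -1.80 to 2.12). Gata6 was 4.19, 4.32 and 3.79 at 16 hours, then 4.14, 4.28 and 3.69 at 24 hours. Its difference of -0.06 ± 0.55 had an interval of -1.21 to 1.09, which leaves room for a difference of about 1 in either direction. By single cells, both genes reached a TPM of 10 in 23 of 31 cells at 16 hours and 18 of 28 at 24 hours. Averaged by experiment that was 70% and 62.1% (exact two-sided permutation p = 0.5, n = 3 each). Cells with Nanog and without Gata6 at that level numbered 7 of 31 and 9 of 28, and no cell lacked both.

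Among the later primitive endoderm regulators, Gata4 (chromosome 14, 63198922 to 63271692), a zinc finger factor that follows Gata6, had separate groups. It was 0.00, 0.55 and 0.14 at 16 hours, then 1.09, 0.76 and 1.83 at 24 hours. All 3 experiments at 24 hours lay above all 3 at 16 hours, yet the difference of 1.00 ± 0.53 did not pass (interval -0.11 to 2.11; adjusted p = 0.515). Cells with a Gata4 TPM of 1 or more numbered 3 of 31 (0, 2 and 1 by experiment) and 10 of 28 (2, 4 and 4), or 7.04% and 35.4% by experiment mean (exact p = 0.1; adjusted over 20 measures 0.5). In fresh cells the count was 7 of 19 at E3.25, 15 of 22 at E3.75 and 12 of 14 at E4.0. Sox17, which acts beside Gata4, was 0.70, 0.23 and 0.00 at 16 hours, then 0.22, 1.69 and 0.80 at 24 hours, with overlap. Its difference was 0.59 ± 0.53, and 2 of 31 against 9 of 28 cells held a TPM of 1. Foxa2 and Sox7, which mark a later step, were at or under 0.32 in every DMSO experiment, with differences of -0.02 ± 0.22 and -0.05 ± 0.22.

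Over the fixed list of 10 primitive endoderm transcription factors, 6 lay above 0 and 4 below, with a median of 0.12 against -0.29 over all genes and no call. Of 9 receptor and endocytosis genes 6 lay below 0 (median -0.33). Lrp2, which encodes the endocytic receptor megalin, had the smallest p of them, at 2.37, 0.79 and 1.24 against 0.26, 0.27 and 0.52 (-1.12 ± 0.33, adjusted p = 0.307). Pdgfra, the PDGF receptor of this lineage, differed by 0.41 ± 0.66. Of 21 basement membrane and matrix genes 13 lay above 0 (median 0.14), led by Fn1 (1.34 ± 0.74), Sparc (1.21 ± 0.93) and Plod1 (0.99 ± 0.78). For Sparc, a collagen-binding matrix protein, the experiments overlapped, at 4.40, 2.26 and 0.64 against 2.33, 3.81 and 4.77.

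Epiblast-side genes gave no call either. Sox2 was 4.22, 2.38 and 1.11 at 16 hours, then 2.92, 1.43 and 1.65 at 24 hours (-0.57 ± 0.72). Fgf4, the ligand made by epiblast-biased cells, was 3.12, 1.66 and 2.13 and then 0.41, 2.68 and 1.99 (-0.61 ± 0.70). For both the spread within a time was wider than the difference between times. Of 11 core pluripotency factors 6 lay below 0 (median -0.31), and of 13 epiblast-associated genes 9 lay above 0 (median 0.09). Of 8 formative or primed genes, which mark the next pluripotent state, 6 lay below 0 (median -0.11), with the DNA methyltransferase gene Dnmt3b furthest at -0.57 ± 0.65. The FGF and ERK pathway had 13 of 18 genes below 0 (median -0.25), among them the ERK phosphatase gene Dusp4 (-1.0 ± 0.64), while the receptor gene Fgfr1 was at 0.76 ± 0.80. The NODAL and BMP pathway had 9 of 17 below 0 (median -0.21). The ligand gene Nodal was listed at 0 in 5 of the 6 experiments. Id3, a BMP target, was spread widely, at 5.61, 2.5 and 0.44 against 2.24, 6.06 and 5.96.

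The naive pluripotency list split. Of its 16 genes 9 lay below 0 and 7 above (median -0.02). Without overlap, 4 were lower, where 14.3% of all genes were lower without overlap, and 2 were higher, where 2.16% of all genes were. Fbxo15, an F-box gene expressed in pluripotent cells, was 9.05, 9.54 and 9.02 at 16 hours, then 3.15, 6.90 and 7.92 at 24 hours (-3.22 ± 1.27, adjusted p = 0.391). Dppa3, which protects maternal methylation marks, was 11.07, 11.04 and 10.88 and then 6.92, 9.88 and 8.75 (-2.48 ± 1.08, adjusted p = 0.410). In both, the first 24 hour experiment, which also had the lowest mitochondrial share, was the lowest of the 6. That share's part in these values was not tested. On the higher side stood Tbx3, singled out after its values were seen, at 3.16, 2.82 and 2.78 and then 4.16, 3.97 and 3.58 (0.99 ± 0.56, adjusted p = 0.549). Klf4 was 2.83, 2.65 and 1.78 at 16 hours, then 2.55, 3.93 and 4.09 at 24 hours. Its groups overlapped (1.11 ± 0.71, adjusted p = 0.605), and a TPM of 10 was reached by 10 of 31 and 20 of 28 cells (exact two-sided permutation p = 0.2, n = 3 experiments each).

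The LIF and STAT3 pathway had 8 of 10 genes above 0, with a median of 0.31. Stat3 itself was 2.96, 1.65 and 1.91 at 16 hours, then 2.97, 3.01 and 3.16 at 24 hours (0.87 ± 0.65). Socs3, a feedback inhibitor induced by STAT3, was 0.38, 0.39 and 0.36 and then 1.42, 0.66 and 1.37 (0.78 ± 0.55). Both were without overlap, although Stat3 was separated by 0.01 alone, and neither passed (adjusted p = 0.676 and 0.659). Of the 10 genes 3 were higher without overlap, where 2.16% of all genes were. With LY the list median between the times was 0.02. Stat3 reached a TPM of 10 in 3 of 31 and 13 of 28 cells in DMSO, and in 6 of 31 and 15 of 24 with LY.

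**Figure D3:**
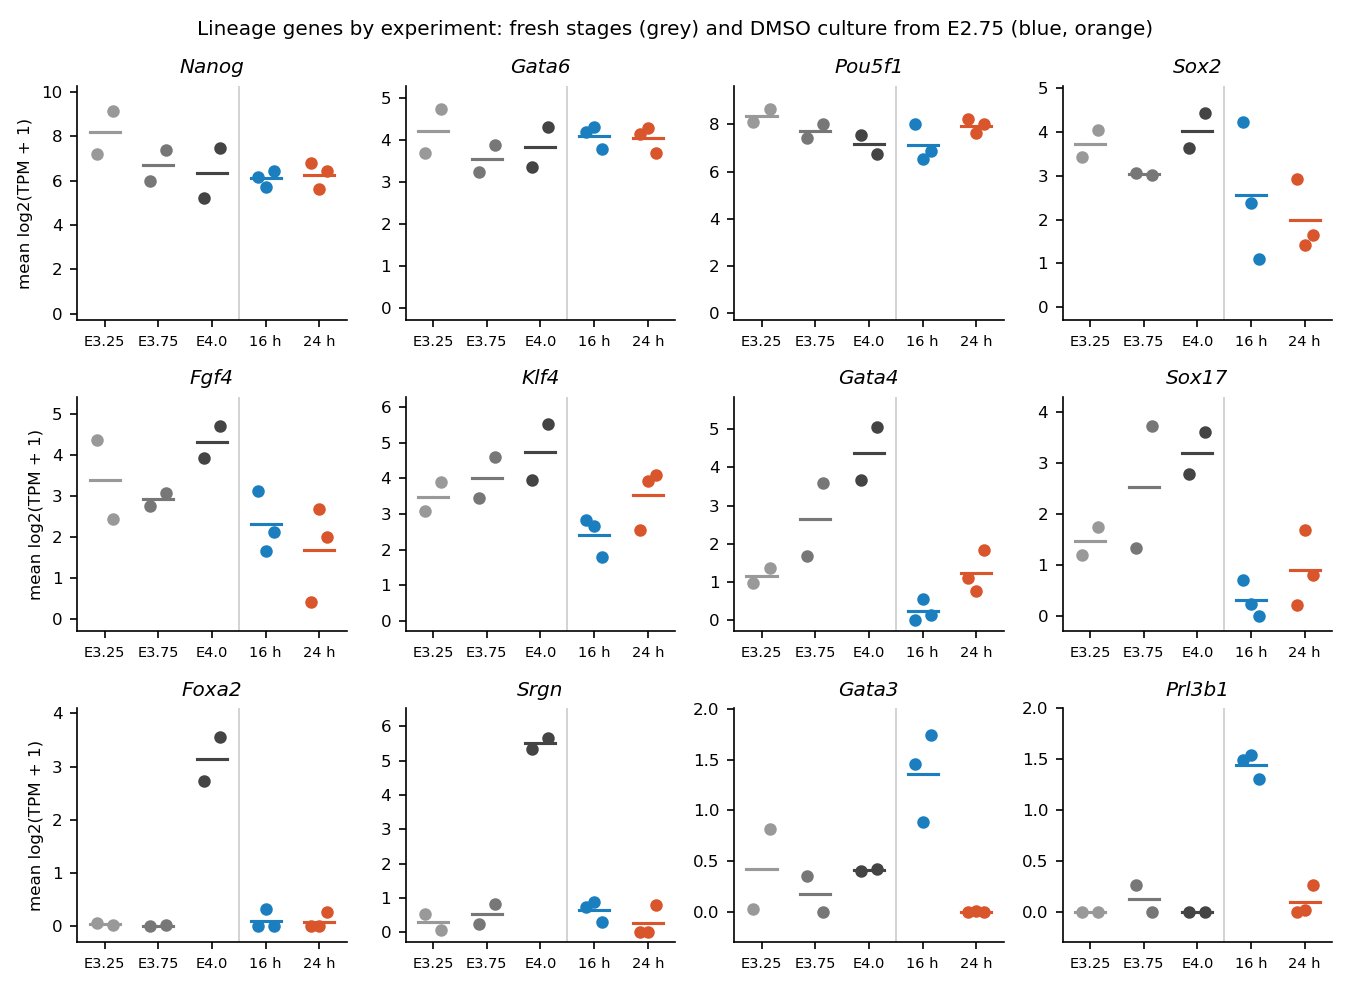
Level of 12 lineage genes, as mean log2(TPM + 1) per experiment (dots) with group means (lines), in fresh E3.25, E3.75 and E4.0 cells and in DMSO culture at 16 and 24 hours. Nanog and Gata6 lie at like levels in both culture groups, and Gata4 lies between 0.76 and 1.83 at 24 hours against 0.00 to 0.55 at 16 hours.

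Trophectoderm is the outer layer that immunosurgery removes. Of 25 marker genes 19 were tested, and 18 of them lay below 0 at 24 hours (median -1.04), 8 at an unadjusted p under 0.05 and 5 without overlap. None passed. Over all genes 69.7% lay below 0, 10.2% were lower at an unadjusted p under 0.05 and 14.3% were lower without overlap. The prostaglandin synthase gene Ptges (-2.29 ± 0.90), the fatty acid binding protein gene Fabp3 (-2.02 ± 0.90) and the tight junction gene Cldn6 (-2.02 ± 0.80) had the largest differences. Gata3, a factor of the outer lineage among the cell type markers of the comparison, was singled out after its values were seen. It was 1.46, 0.89 and 1.74 at 16 hours, then 0.00, 0.01 and 0.00 at 24 hours (-1.36 ± 0.33, adjusted p = 0.204). A TPM of 1 or more was found in 13 of 31 cells (2, 5 and 6 by experiment) and in 0 of 28, which allows up to 10.7%. Cdx2, the defining factor of the lineage, was low at both times, at 1.39, 0.31 and 1.08 against 0.63, 0.00 and 0.15 (-0.67 ± 0.29). Krt8 and Krt18, keratins that inner cells of this age also carry, did not separate (-0.71 ± 0.77 and -0.16 ± 0.97).

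These marker levels rested in part on 1 experiment. The summed TPM of the 25 markers was 1662, 408 and 567 at 16 hours, then 720, 504 and 421 at 24 hours. The first 16 hour experiment was the highest, and the other 5 lay together. Without it 13 of 19 markers lay below 0 and the median was -0.38. Tspan8, a tetraspanin gene, showed the pattern most plainly among the values examined, at 4.77, 0.64 and 0.26 against 0.00, 0.00 and 0.04. The part of outer cells in these values was not tested.

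Mitochondrially encoded transcripts, which code for subunits of the respiratory chain and ATP synthase, had the largest shift of the 33 gene lists. All 13 lay below 0 at 24 hours, and all 13 were lower without overlap, where 14.3% of all genes were. The differences ran from -6.45 to -0.51 with a median of -3.29, and 12 had an unadjusted p under 0.05. None passed, the smallest adjusted p being 0.107 for mt-Nd4l (-4.56 ± 0.93). mt-Nd3, a complex I subunit gene, was 10.52, 11.73 and 11.06 at 16 hours, then 0.00, 7.14 and 6.82 at 24 hours (-6.45 ± 1.88). Within the 24 hour group the cells split: mt-Nd3 had a TPM of 1 or more in 0 of 6, 9 of 11 and 8 of 11 cells, against 31 of 31 cells at 16 hours. Fresh cells split too, with 8 of 19 cells at E3.25, 14 of 22 at E3.75 and 11 of 14 at E4.0. mt-Co3, of complex IV, gave 18 of 28 cells at 24 hours and 31 of 31 at 16 hours.

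The members did not move by the same amount. mt-Cytb, of complex III, was 11.61, 12.24 and 11.91 at 16 hours, then 11.35, 11.36 and 11.51 at 24 hours (-0.51 ± 0.58), the smallest difference of the 13. mt-Co1 differed by -2.55 ± 1.07 and mt-Nd2 by -3.29 ± 0.81. The list stayed below 0 without the first 24 hour experiment, at a median of -2.27 with all 13 genes lower. With LY the same list gave a median of -3.27 between the times. An exact 0 in a table of this kind can be a failed estimate, so these genes are only said to be listed at 0. Several abundant nuclear transcripts were also lowest in the first 24 hour experiment. Rpl39, a ribosomal protein gene, was 3.24 there and 9.09 and 9.54 in the other two, and Cox7a2, of complex IV, was 1.42 there and 7.57 and 6.08. Whether library quality has a part in these values was not tested.

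Housekeeping and metabolic lists are given beside the all-gene median of -0.29. The ribosomal proteins had 54 of 91 genes below 0 (median -0.25), nuclear oxidative phosphorylation subunits 42 of 78 (-0.11) and proteasome subunits 21 of 31 (-0.35), with Psma4 furthest at -3.56 ± 1.14. Glycolysis and glucose uptake had 15 of 23 below 0 (-0.25), fatty acid synthesis 10 of 17 (-0.26), the methionine cycle and one-carbon genes 16 of 23 (-0.41), and lysosome and autophagy 18 of 27 (-0.18). In this last list Lamp2, which encodes a lysosomal membrane protein, was 6.10, 5.26 and 4.23 at 16 hours, then 2.98, 2.21 and 2.31 at 24 hours (-2.70 ± 0.74, adjusted p = 0.279). The groups were well apart, and the call was not made. Among signalling and stress lists, PI3K, AKT and mTOR parts had 14 of 22 below 0 (-0.23), Hippo pathway genes 11 of 16 (-0.57), ATF4 amino acid stress genes 9 of 18 (-0.12), immediate early and heat shock genes 10 of 17 (-0.27), p53 and growth arrest genes 12 of 18 (-0.22) and the BCL2 family 5 of 10 (-0.04). DNA methylation writers and erasers had 9 of 13 below 0 (-0.13), early inner cell and morula genes 12 of 16 (-0.55), and blood and placenta markers 2 of 3 tested (-0.62).

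Of 19 endoplasmic reticulum chaperone genes, which fold secreted proteins, 16 were below 0 (median -0.90), with Hspa5, or BiP, at 7.07, 6.21 and 5.56 against 3.98, 4.92 and 5.8 (-1.38 ± 0.72). Cholesterol synthesis and uptake had 17 of 23 below 0 (-0.60). Insig1, which encodes a sterol-regulated brake on the pathway, was lower in all 3 experiments at 24 hours than in any at 16 hours (-1.57 ± 0.72, adjusted p = 0.438). Of 26 mitotic genes 25 were below 0 (-0.42), with the cyclin gene Ccnb1 at 8.67, 8.15 and 7.67 against 3.87, 6.15 and 6.18 (-2.77 ± 1.06). Replication genes had 15 of 25 below 0 (-0.35), but Chaf1b, a chromatin assembly subunit gene, was higher by 1.80 ± 0.78. Hypoxia targets were below 0 in 13 of 13 (-0.51), in 9 of 13 without the first 16 hour experiment (-0.24) and in 8 of 13 with genes detected as a covariate (-0.06). The chaperone, cholesterol and mitotic medians also moved with the first 16 hour experiment, the one with most genes detected: without it they were -0.53 for chaperones, -0.17 for cholesterol genes and -0.01 for mitotic genes, and with genes detected as a covariate cholesterol and mitotic genes were at 0.16 and 0.33. Its part in them was not tested further.

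**Figure D4:**
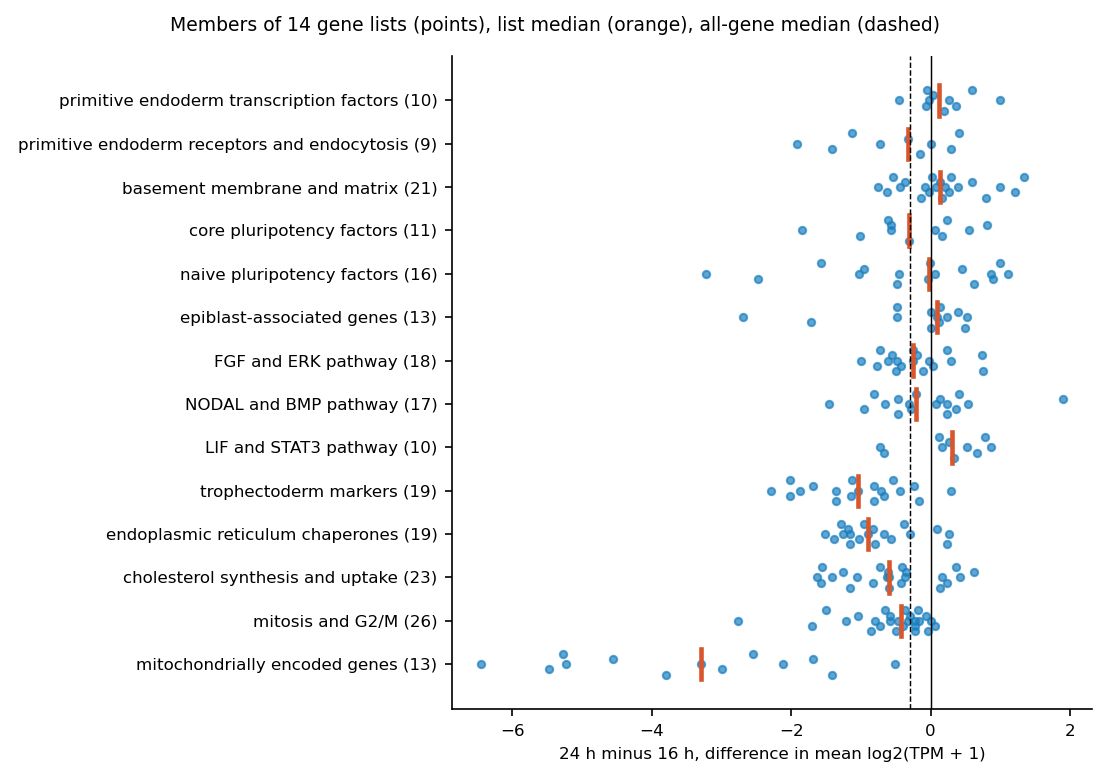
Difference in mean log2(TPM + 1), 24 hours minus 16 hours, for each tested member of 14 gene lists (points), with the list median in orange, 0 as a solid line and the all-gene median of -0.29 dashed. Mitochondrially encoded genes lie furthest left (median -3.29), and LIF and STAT3 genes have the highest median (0.31).

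The culture interval of 8 hours was then set beside development in fresh embryos. From E3.25 to E4.0, an interval of 18 hours by the labels, 195 genes were called (1.67%), of which 164 rose (1.4%) and 31 fell (0.265%). The difference between the steps themselves was called for 86 genes (0.736%), of which 82 were lower in the culture step (0.702%) and 4 higher (0.0342%). The intervals differ in length, so this test compares the steps as sampled and not their rates. By its label of E2.75 + 24h, the 24 hour group is nominally of E3.75 age, short of E4.0. The whole contrast was shifted, with a median over all genes of -0.54 and 8159 genes below 0. Mean genes detected went from 8084 at 16 hours to 6454 at 24 hours, but from 6235 at E3.25 to 7459 at E4.0. With genes detected as a covariate the median was 0.20, with 20 genes called lower and 5 higher. After quantile normalization it was 0.05, with 47 lower and 18 higher. The split of 82 and 4 is thus not free of this shift. Of the 82, 66 were also among those that rose in fresh embryos, 56 moved by less than 0.5 in culture, and 58 had a mean under 1 in both culture groups. In 64 of the 82, both E4.0 experiments lay above all 6 DMSO experiments. The 164 genes that rose in fresh embryos had a median fresh difference of 1.88 and a median culture difference of 0.01, with 86 above 0 and 74 below. The 31 that fell had medians of -3.51 and -0.23. The same fresh values enter both the choice of these genes and the difference between the steps, which was below 0 for all 164. These counts and medians therefore follow in part from that choice and give no separate support.

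Members of the gene lists in this set included primitive endoderm and NODAL-pathway genes. Srgn, a secreted proteoglycan gene (chromosome 10, 62493833 to 62527451), was 0.54 and 0.05 at E3.25 and 0.24 and 0.82 at E3.75. At E4.0 it was 5.35 and 5.66. In culture it was 0.72, 0.89 and 0.31 at 16 hours, then 0.00, 0.00 and 0.80 at 24 hours. These culture values lay far below E4.0 and near those of E3.75. The steps differed by -5.58 ± 0.53 (adjusted p = 1.03e-05). Foxa2 (chromosome 2, 148042877 to 148046969), a forkhead factor of endoderm, was 0.07 and 0.02 at E3.25 and 2.73 and 3.55 at E4.0, and the steps differed by -3.11 ± 0.35 (adjusted p = 5.65e-05). Of the 10 primitive endoderm factors 4 were in the set, among them Foxa2, Sox7 (-2.08 ± 0.34) and Foxq1 (-1.14 ± 0.26), beside 0.702% of all genes with a lower culture step. Foxa2 and Sox7 averaged 3.14 and 2.03 at E4.0, and at most 0.11 and 0.14 in the other fresh and DMSO groups. Their place in the test and their calls thus rest on E4.0, and the count of 4 is no test of the list. The call of Foxq1 was lost in 8 of the 12 fits that leave out 1 experiment. Amn, which anchors the cubilin receptor, differed by -5.11 ± 0.89, and Nid2, a basement membrane nidogen gene, by -3.83 ± 0.42. At E3.75 Amn was 1.16 and 1.83 and Nid2 was 0.25 and 0.57, against means of 5.56 and 4.04 at E4.0. The NODAL antagonists Lefty1 and Lefty2 differed by -5.04 ± 0.90 and -4.80 ± 0.83. Lefty1 was 1.41 and 2.28 at E3.75, 3.60 and 7.04 at E4.0 and at most 0.70 in the DMSO experiments. Lefty2 was 1.40 and 1.19 at E3.75 and 2.93 and 6.27 at E4.0. The SD of the 2 E4.0 experiments was 2.44 for Lefty1 and 2.36 for Lefty2. Their SE rests on the spread of all 7 groups, and the other fresh and DMSO groups spread less. Trh, the gene of thyrotropin-releasing hormone, differed by -4.88 ± 0.64, and it was 0.38 and 0.83 at E3.75.

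Gata4 was not in the set. It was 0.96 and 1.35 at E3.25, 1.68 and 3.60 at E3.75 and 3.68 and 5.06 at E4.0, and the difference between steps was -2.22 ± 0.84 (adjusted p = 0.212). Of the 4 genes that were higher in the culture step, Cited1, a transcriptional co-regulator, was 8.09 and 7.78 at E3.25 and 3.97 and 2.03 at E4.0. In culture it was 7.35, 6.94 and 7.46 and then 6.24, 6.82 and 7.08, near the E3.25 level at both times. The steps differed by 4.40 ± 1.02 (adjusted p = 0.0452), a call lost in 9 of the 12 fits that each left out 1 experiment. Reep1, an endoplasmic reticulum shaping gene, differed by 4.30 ± 1.01 (adjusted p = 0.0478), a call lost in 8 of the 12. Srgn, Foxa2, Sox7, Nid2, Lefty2 and Trh kept their calls in all 12. Like Foxa2 and Sox7, Srgn, Nid2 and Trh had means under 1 in every fresh and DMSO group but E4.0. For Lefty2 the highest mean of those groups was at E3.75, below both E4.0 experiments. The calls of all these genes thus rest on E4.0, and most of the 12 fits keep both E4.0 experiments. Their stability therefore gives no separate support.

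The count of 86 depended on which experiments and cells were used. Leaving out 1 experiment at a time gave 31 to 210, with 35 and 31 without either E3.25 experiment, 210 and 152 without either E4.0 experiment, 39 and 43 without the first or second 24 hour experiment, and 55 without the first 16 hour experiment. Within the 2 sequencing runs it was 0 for run 1 and 537 for run 2. With genes detected as a covariate it was 25, of which 21 were among the 86. After quantile normalization 18 of 65 calls were higher in the culture step, against 4 of 86.

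**Figure D5:**
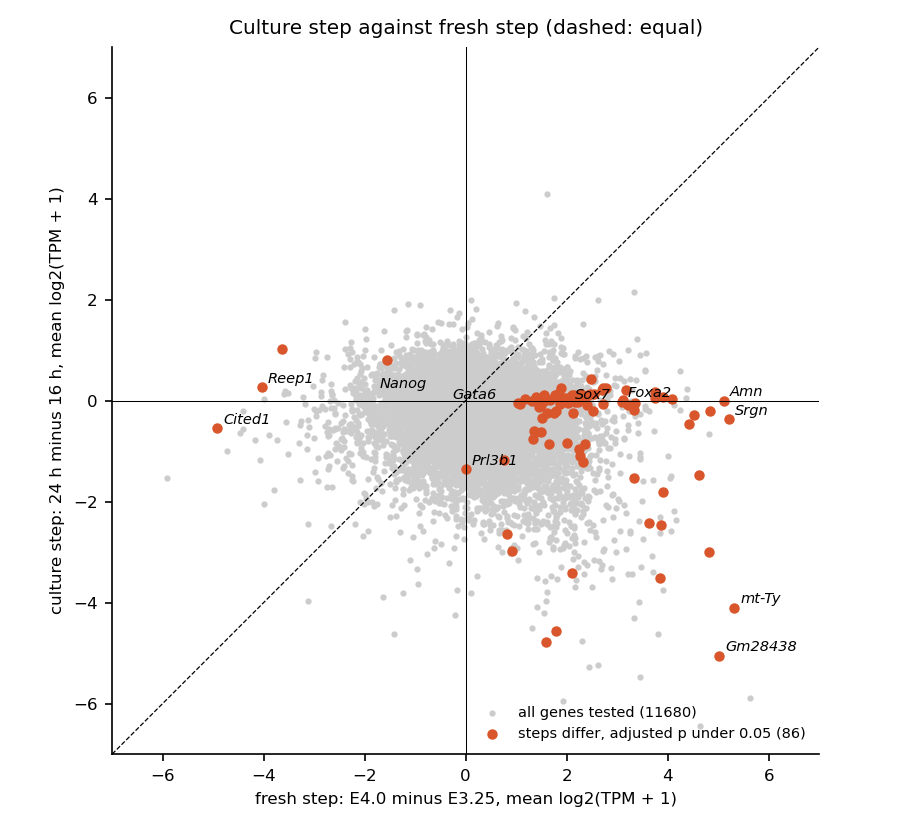
Difference from E3.25 to E4.0 in fresh cells (x axis) against the difference from 16 to 24 hours in DMSO culture (y axis), both in mean log2(TPM + 1), for 11680 genes. The 86 genes whose steps differed (orange) lie mostly at the right and near 0 on the y axis, with Srgn, Amn and Foxa2 among them, and the dashed line marks equal steps.

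Against the shorter fresh step from E3.25 to E3.75, 12 hours by the labels, limma called 0 genes, with 655 at an unadjusted p under 0.05 (5.61%). The smallest adjusted p was 0.0852, for the mitochondrial tRNA gene mt-Tn (-8.43), and Gm49957 (2.25) and Prl3b1 (-1.48) followed at 0.0891 and 0.218. Between the DMSO and LY steps 0 genes differed, with 291 at an unadjusted p under 0.05 (2.49%). The smallest p values there were those of Allc (-2.23), mt-Tk (3.07) and Prl3b1 (-1.03), each with an adjusted p of 1. With LY, 1097 genes had an unadjusted p under 0.05 between the times (9.39%). The median difference over all genes was -0.18 with LY, -0.09 from E3.25 to E3.75 and 0.20 from E3.25 to E4.0. The 2 arms of a culture time share their dates, so both steps span the same dates. Prl3b1 was -1.35 in DMSO and -0.33 with LY, and Gata4 was 1.00 and 0.03. These LY and DMSO steps were not shown to differ.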

How the data were processed

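The authors deposited 1 table of TPM values with 170 columns, and column names were matched to sample titles. The submitters' processing notes list RSEM 1.3.3, STAR 2.7.9a, cutadapt 2.9, bcl2fastq 2.20.0 and build mm10. Settings and annotation are not given in the sources used here. Gene positions come from GENCODE release M21. Of 186 labelled samples, 16 had no column and were not analysed here. A pair of E3.25 columns with 1 title was averaged. TPM keeps no depth. As reads come from 3′ ends while TPM divides by length, different genes' levels were not compared.

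Genes with a TPM of 1 or more in 25% of the cells of any group were kept. Experiment means of log2(TPM + 1) for all 7 groups (18 experiments) were fitted with limma 3.58.1 in R 4.3.3 (eBayes with trend), with Benjamini-Hochberg adjustment. Each gene had 1 spread shared by all 7 groups. An SE can therefore be smaller or larger than the spread of the groups compared. The DMSO and LY experiments of a culture time share their 3 dates by the labels, and deviations of same-date pairs correlated across genes at 0.07 to 0.39. Single measures used exact two-sided permutation tests (scipy 1.17.1). Nothing in the labels names separate animals within an experiment, so p-values measure the spread between collection dates. Intervals of shares are exact binomial and, like the limit of 3 cells at a count of 0, cover counting error only. All cells were kept, and doublets were not called, since each cell was picked singly.

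Named genes were the called ones, the 5 smallest p in each direction, 40 lineage genes (39 tested), members of 33 gene lists that passed or had the 3 largest differences, and the leading genes of each difference between steps. Of 737 list symbols 734 were in the table and 654 were tested. Genes outside this rule are marked in the text or are Trh, Foxq1, Nid2, mt-Nd4l, mt-Nd2, mt-Co1, mt-Cytb and Tspan8, named after their values were seen. Some members are not reported here by name. The members and lists were chosen with earlier results of these data known, and some early inner cell genes were taken from the fresh stages.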

Additional observations from a re-analysis of the deposited data

Results flagged for a closer look

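The step from 16 to 24 hours in DMSO differed from the fresh step from E3.25 to E4.0, by limma's test of the difference itself, for the genes below. The values are the culture step minus the fresh step in mean log2(TPM + 1).

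Primitive endoderm and matrix genes were Srgn (-5.58), Amn (-5.11), Nid2 (-3.83), Foxa2 (-3.11), Sox7 (-2.08) and Foxq1 (-1.14). Signalling genes were Lefty1 (-5.04), Trh (-4.88) and Lefty2 (-4.80). Vim, an intermediate filament gene, had -2.12, and Prl3b1 had -1.35, all of it from the culture side, since both fresh groups were listed at 0. Of the 12 fits that leave out 1 experiment, 8 lost the call of Foxq1, 8 that of Vim, 5 that of Prl3b1 and 1 each those of Amn and Lefty1.

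Of the mitochondrial genome, mt-Ty had -9.41, mt-Tc -7.82, mt-Tn -7.35, mt-Tm -6.37 and mt-Nd4l -6.36. The pseudogene Gm28438 had -10.05 and the noncoding RNA Gm48222 -3.45. Leaving out 1 experiment lost the call of mt-Tc in 8 of 12 fits, of mt-Tm and mt-Nd4l in 7, of mt-Ty in 3, of mt-Tn in 1, of Gm48222 in 8 and of Gm28438 in 0. The mean mitochondrial share was 12.8% at 16 hours, 6.61% at 24 hours, 6.95% at E3.25 and 15.2% at E4.0, and its part in these values was not tested.

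Genes with a higher culture step were Olfr506 (4.66), Cited1 (4.40), Reep1 (4.30) and Gm49957 (2.35). Their calls were lost in 8, 9, 8 and 0 of the 12 fits. Olfactory receptor genes have near-identical copies, so the value of Olfr506 is uncertain.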

How the results depend on the processing

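No paired analysis was possible because the culture times and fresh stages share no collection date, except between the DMSO and LY arms of a time. With that date as a block, chosen after seeing the data, 0 genes differed between the DMSO and LY steps (478 at an unadjusted p under 0.05, and Prl3b1 -1.03 ± 0.27, adjusted p = 1). For 24 against 16 hours, the count of 1 called gene became 2 with a pseudocount of 0.1, 3 with no filter, 6 with a filter of 50% of cells, 11 with experiments weighted by cells and 0 after quantile normalization, in a fit of the DMSO experiments alone, with genes detected as a covariate, without a trend, in run 1 or run 2 cells, and without the first experiment of both times. Leaving out 1 experiment gave 0 to 8. For the difference from the E3.25 to E4.0 step, the 86 became 53 with a pseudocount of 0.1, 179 with no filter, 42 on log2 of mean TPM, 25 with the covariate, 140 weighted, 13 without a trend, 0 in run 1, 537 in run 2, 43 in cells with 5000 genes and 25 without both first experiments (24 of them among the 86). Leaving out 1 experiment gave 31 to 210. For the E3.25 to E3.75 step, the 0 became 1 with a pseudocount of 0.1, 2 with one of 10, 50 with no filter, 1 with the 50% filter, 1 on mean TPM, 2 after quantile normalization, 1 with TPM rescaled and 3 weighted, and 0 to 3 leaving out 1 experiment. The difference between DMSO and LY steps was 0 genes in every alternative run. The causes were not tested.

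Prl3b1 ranged from -2.94 to -0.50 over 21 alternatives, with adjusted p from 0.000297 to 0.707, and was not tested under the 50% filter. The all-gene median ranged from -0.45 to -0.02 leaving out 1 experiment, genes detected from -2121 to -675, and the mitochondrial share from -7.48 to -3.67 percentage points. Of 154 named genes that did not pass, 51 took the other sign in at least 1 alternative and 4 (Allc, Gm28438, Gm48222 and mt-Tm) passed in at least 1. Leaving out each fresh experiment, or both first ones, was chosen after seeing the data. Depth per cell is unknown, so a low gene that is listed at 0 cannot be told from one below detection.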
